A study of Mus musculus with 9 samples.

Results

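The genes examined here encode respiratory complexes I, II, III and V, the NADH dehydrogenase, succinate dehydrogenase, cytochrome bc1 complex and ATP synthase of the inner mitochondrial membrane. The members were picked by a name pattern, as every gene on the array whose name marks it as an Nduf, Sdh, Uqcr or Atp5 gene, and the pattern itself uses no measured value. The name pattern took 101 of 39429 probes, which belong to 67 genes, and all 67 passed the filter on dim signal that left 22053 genes in the test. Of the 67, 35 encode subunits of complex I, 4 of complex II, 8 of complex III and 15 of complex V. The other 5 carry such a name without being subunits of these complexes. They are Ndufa4, now assigned to cytochrome c oxidase, its paralogue Ndufa4l2, the pseudogene Atp5c1-ps, and Atp5s and Atp5sl, which RefSeq lists as Dmac2l and Dmac2.

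Complex I takes electrons from NADH and complex II from succinate, both pass them through ubiquinone to complex III, and complex III hands them to cytochrome c. Complexes I and III pump protons as they do so, and complex V lets the protons back through its rotor to make ATP. Each complex is built from several nuclear-encoded subunits in fixed proportions, and skeletal muscle fibres that rely on oxidative metabolism are rich in all of them. Subunits encoded by mitochondrial DNA are not in the name pattern, and neither are the Cox genes of complex IV.

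RNA came from C2C12 cells, an established mouse myoblast line that forms myotubes in culture, after 72 h with vehicle or with 1,25(OH)2-vitamin D3 (calcitriol, the hormonal form of vitamin D) at 1 nM or 10 nM. Each group had 3 cultures, described by the submitters as biological replicates, and each culture was hybridised to its own 1-colour array. The series title speaks of myotubes, and all 15 myotube markers examined, among them Myog, Ckm, Actn2 and Ttn, were above background on all 9 arrays. Values below are log2 signals relative to the 75th percentile of the same array. They can be compared between arrays for 1 gene and not between genes. A gene was called when limma's adjusted p, over all 22053 genes, was under 0.05, and SE is the standard error of the log2 change. The number of arrays, 3 a group, limits the precision.

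The third vehicle array stood apart, with 6124 spots marked as non-uniform against 8 to 56 on the others and 96.4% of spots above background against 67.1% to 79.2%. Its median intensity was 660 against 216 to 315, and vehicle arrays correlated at 0.969 to 0.995 across genes, against 0.992 to 0.997 within the calcitriol groups. For the 67 genes it read a median of 0.04 below the other vehicle arrays, on the log2 scale. It read a median of 0.09 above them for all genes with a value on it. For the other genes of like signal, described below, it read 0.08 below them. Counts are therefore also given without it. The arrays lay on 3 slides, with one of the 10 nM arrays alone on the third slide.

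With 10 nM calcitriol, 50 of the 67 genes were called higher than with vehicle (74.6%, against 15.3% of all genes tested) and 1, Atp5s, was called lower (against 14.7%). In either direction 30% of all genes were called at 10 nM and 23.5% at 1 nM. The median log2 change of the 67 genes was 0.41, or 1.33-fold, against -0.11 for all genes. With 1 nM calcitriol, 15 genes were called higher (22.4%, against 11.7% of all genes) and 0 lower (against 11.8%), with 32 higher and 1 lower at an unadjusted p under 0.05 in limma. The median change at 1 nM was 0.20, or 1.15-fold, against -0.09 for all genes. Both comparisons used the same vehicle arrays. Counted by array, 61 genes at 10 nM (against 21.7% of all genes) and 42 at 1 nM (against 19.7%) had every calcitriol value above every vehicle value, and 2 at each dose had every calcitriol value below (against 22.1% and 22.9%). In RNA from whole cultures, fewer cells of a type and less RNA per cell cannot be told apart.

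The count at 10 nM, in either direction, was 40 to 49 with any single array left out (against 23.1% to 32.4% of all genes). It was 46 without the third vehicle array (32.4%). The count at 1 nM was 3 without the second 1 nM array (against 16.0% of all genes) and 4 without the third (15.9%). It was 15 without the first 1 nM array (19.6%) and 13 without the third vehicle array (25.2%). Within the first slide, where each dose had 1 array, 0 genes were called at either dose (19 at 10 nM and 0 at 1 nM at an unadjusted p under 0.05 in limma), against 11.6% and 7.22% of all genes in the same fit, while the median changes of the complexes there ran from 0.39 to 0.45 at 10 nM and from 0.11 to 0.15 at 1 nM. The second slide held the third vehicle array as its only vehicle array and a lone 10 nM array, so that the spread there came from its 1 nM arrays alone. In that fit 32 genes were called at 10 nM and 16 at 1 nM, against 48.7% and 50.9% of all genes, with medians of 0.36 to 0.45 and 0.18 to 0.29. Scaling each array to its median instead of its 75th percentile left 5 genes called at 10 nM and 0 at 1 nM (against 2535 and 1527 of all 22053 genes), with member medians of 0.94 and 0.69. Without the third vehicle array this scaling called 39 and 0 (against 24.5% and 16.4%), with medians of 0.52 and 0.29.

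**Figure D1:**
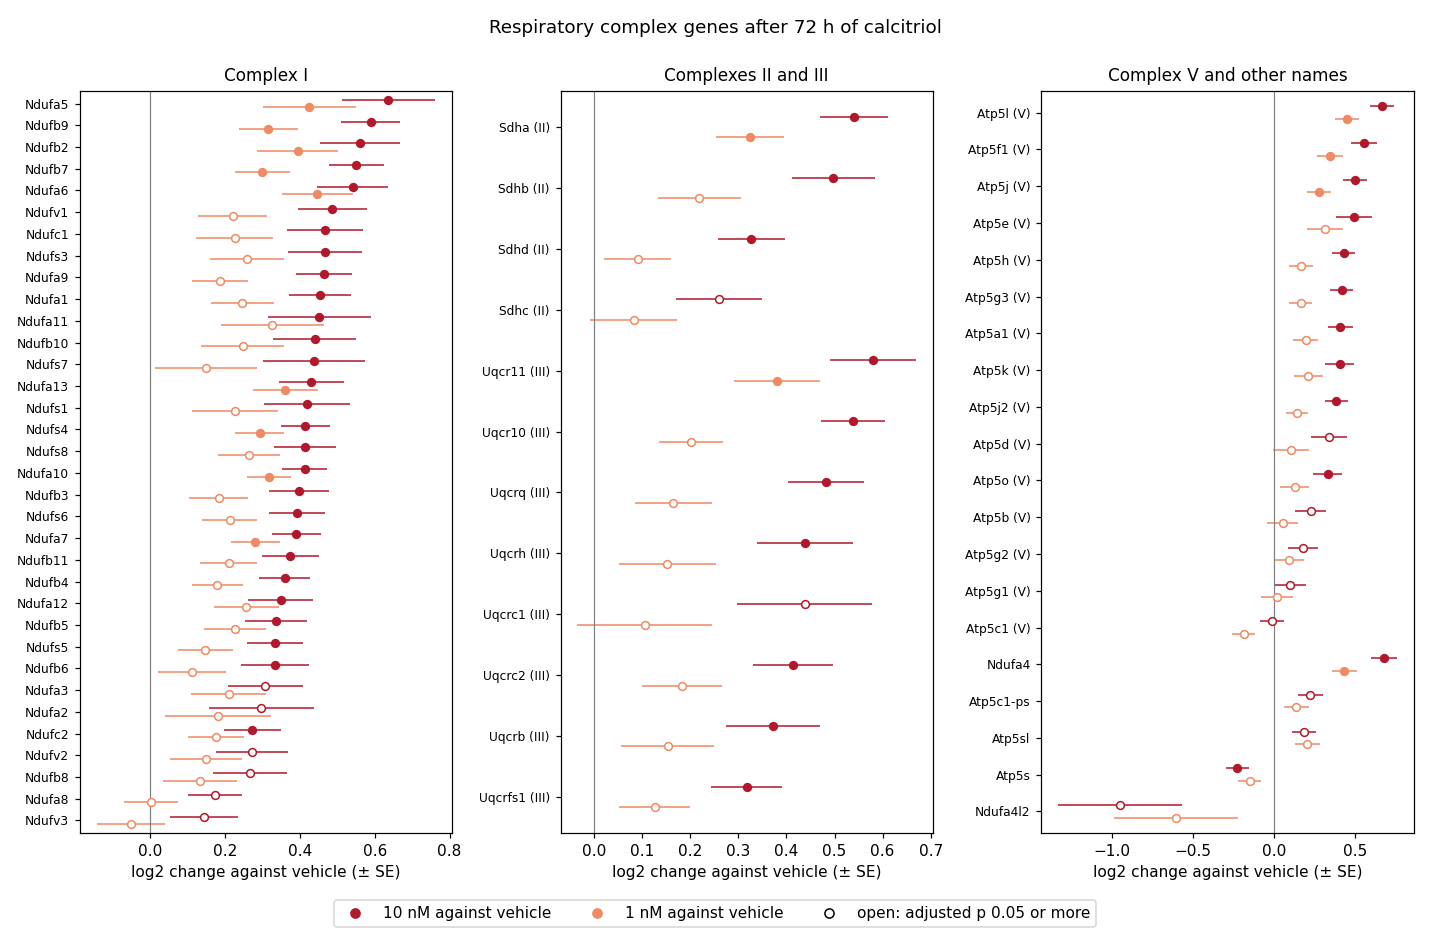
Log2 change of 66 of the 67 genes against vehicle (x axis, ± SE), at 10 nM (dark red) and 1 nM (orange), from limma fits of 3 arrays a group. Filled points have an adjusted p under 0.05, which held for 50 of these genes at 10 nM and 15 at 1 nM, and most dark red points lie to the right of the orange point of the same gene.

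Genes of like signal strength were shifted less. The middle 80% of the 67 genes had mean log2 signals from 2.63 to 5.77, and the 2687 other genes in that range had a median change of 0.09 at 10 nM and 0.06 at 1 nM, above the medians of all genes. Of those genes, 26.5% were called higher and 12.2% lower at 10 nM, and 19.1% higher and 11.1% lower at 1 nM. The respiratory genes also spread less than these genes. Their quartiles at 10 nM were 0.32 and 0.47, against -0.16 and 0.32 for genes of like signal.

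**Figure D2:**
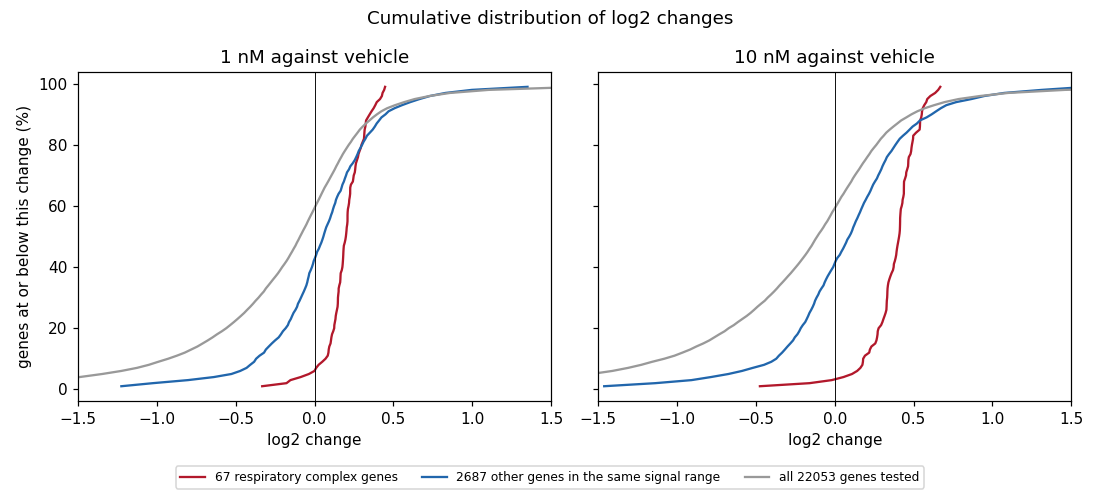
Share of genes (y axis, percent) with a log2 change against vehicle at or below the value on the x axis, at 1 nM (left) and 10 nM (right). The curve of the 67 respiratory complex genes (red) is steep, with a median of 0.20 at 1 nM and 0.41 at 10 nM, while the 2687 other genes of like signal (blue) have medians of 0.06 and 0.09 and all genes (grey) medians below 0.

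The median changes of the 4 complexes lay close to each other at 10 nM. They were 0.41 for complex I, 0.41 for complex II, 0.44 for complex III and 0.40 for complex V. The genes called higher numbered 29 of 35, 3 of 4, 7 of 8 and 10 of 15 in that order. These are 82.9%, 75%, 87.5% and 66.7%, against 15.3% of all genes. At 1 nM the medians were 0.23, 0.15, 0.16 and 0.16, and 9, 1, 1 and 3 genes were called higher. These are 25.7%, 25%, 12.5% and 20%, against 11.7% of all genes and 19.1% of genes of like signal. Taken array by array, as the median over a complex's genes of the signal minus the vehicle mean, complex I stood at 0.06, -0.05 and -0.02 in vehicle cultures, 0.16, 0.31 and 0.25 at 1 nM and 0.39, 0.40 and 0.39 at 10 nM. Complex III stood at 0.04, -0.03 and -0.05 in vehicle cultures, 0.13, 0.24 and 0.15 at 1 nM and 0.53, 0.42 and 0.45 at 10 nM.

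Complexes II and V were ordered alike. Complex II stood at 0.07, 0.04 and -0.10 in vehicle cultures, 0.13, 0.21 and 0.18 at 1 nM and 0.39, 0.41 and 0.42 at 10 nM. Complex V stood at 0.03, -0.0028 and -0.04 in vehicle cultures, 0.13, 0.18 and 0.19 at 1 nM and 0.44, 0.37 and 0.36 at 10 nM. In each complex the 3 groups did not overlap. Complex V minus complex III was -0.09 to -0.05 on the 10 nM arrays, -0.06 to 0.03 on the 1 nM arrays and -0.01 to 0.03 on the vehicle arrays. At 1 nM the other complexes lay below complex I on every array, with differences of -0.13 to -0.02, while at 10 nM complex III lay above complex I by 0.02 to 0.14. No test was made between complexes.

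**Figure D3:**
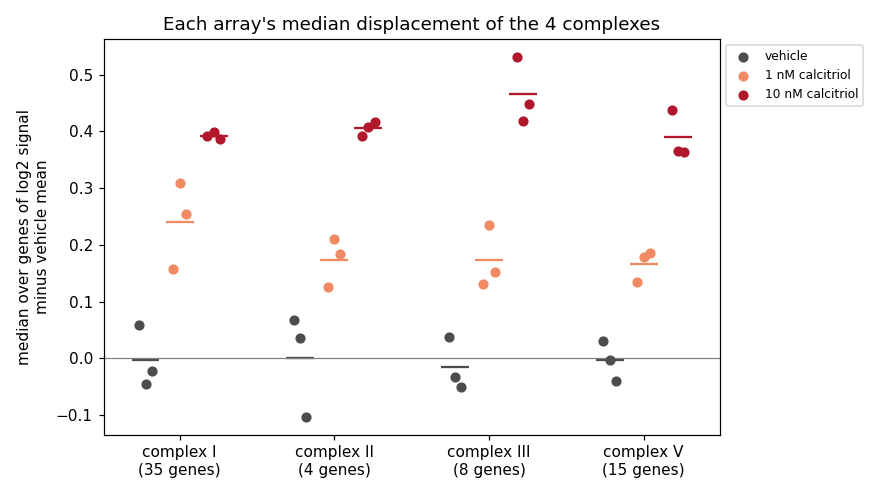
Median over a complex's genes of the log2 signal minus its vehicle mean (y axis), 1 point per array, for complexes I, II, III and V and the vehicle (grey), 1 nM (orange) and 10 nM (dark red) groups, with a line at the mean of 3 arrays. In every complex the 10 nM points lie between 0.36 and 0.53, above all 1 nM points, which lie between 0.13 and 0.31 and above all vehicle points.

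Promoters of the members were searched for motifs of factors known from respiratory genes, in windows from 250 bases before to 50 bases after the annotated start (RefSeq, GRCm38.p6), which were at hand for 56 of the 67 genes. The NRF1 motif, GCGCA, any base and GCGC, on either strand, was present in 16 of the 56 genes (28.6%). It was present in 5.19% of all 27025 genes with such a window, which, unlike the members, were not filtered for signal. Searched likewise on both strands, the YY1 motif AAGATGGC was present in 11 (19.6%, against 3.19%), the GABPA motif CCGGAAGT in 4 (7.14%, against 4.31%) and the estrogen-related receptor motif TCAAGGTCA in 2 (3.57%, against 0.466%). The median change at 10 nM was 0.40 for the 16 genes with it and 0.41 for the 40 genes without, and for the YY1 motif 0.41 for both sets. A match is a description of the letters and not a measured site.

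Promoters of 4 called members with different motifs are shown, each 5′ to 3′ in the direction of the gene, with matches on either strand in capitals. In Sdha the capitals are 3 NRF1 matches. In Ndufs6, an accessory subunit of complex I, they are an NRF1 match and, past the start, a YY1 match. In Atp5g3 they are an estrogen-related receptor match and an NRF1 match, and in Atp5f1 a YY1 match at the start itself. No 2 matches overlap in these windows.
Sdha, chr13:74350191-74350490, minus strand: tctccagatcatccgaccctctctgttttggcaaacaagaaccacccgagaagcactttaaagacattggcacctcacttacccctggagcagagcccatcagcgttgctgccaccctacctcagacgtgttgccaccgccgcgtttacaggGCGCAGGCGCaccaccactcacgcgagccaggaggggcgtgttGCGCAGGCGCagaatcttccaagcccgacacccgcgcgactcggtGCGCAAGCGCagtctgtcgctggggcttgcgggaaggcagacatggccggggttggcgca
Ndufs6, chr13:73328433-73328732, minus strand: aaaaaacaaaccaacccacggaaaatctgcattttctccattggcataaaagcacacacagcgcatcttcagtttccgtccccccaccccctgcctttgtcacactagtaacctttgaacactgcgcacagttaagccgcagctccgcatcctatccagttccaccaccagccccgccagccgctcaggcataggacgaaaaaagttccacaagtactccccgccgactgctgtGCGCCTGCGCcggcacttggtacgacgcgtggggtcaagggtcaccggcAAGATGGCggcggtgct
Atp5g3, chr2:73911277-73911576, minus strand: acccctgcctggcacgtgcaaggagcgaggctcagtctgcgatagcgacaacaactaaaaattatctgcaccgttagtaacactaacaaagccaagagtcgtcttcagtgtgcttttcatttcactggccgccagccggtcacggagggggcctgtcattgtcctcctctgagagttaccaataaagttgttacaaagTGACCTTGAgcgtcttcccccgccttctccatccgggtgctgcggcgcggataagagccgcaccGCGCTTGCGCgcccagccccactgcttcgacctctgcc
Atp5f1, RefSeq Atp5pb, chr3:105959214-105959513, minus strand: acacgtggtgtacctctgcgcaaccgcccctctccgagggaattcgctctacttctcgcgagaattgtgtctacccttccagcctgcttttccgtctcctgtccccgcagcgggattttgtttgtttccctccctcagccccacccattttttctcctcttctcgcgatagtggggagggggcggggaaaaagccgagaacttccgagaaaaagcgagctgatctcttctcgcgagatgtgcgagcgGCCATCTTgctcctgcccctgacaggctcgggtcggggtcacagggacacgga
The 10 nM changes of these genes were 0.54, 0.39, 0.42 and 0.55. Ndufs6 measured 5.14, 5.04 and 5.16 in vehicle cultures, 5.25, 5.38 and 5.35 at 1 nM and 5.60, 5.49 and 5.43 at 10 nM, with 10 nM values above all others.

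Complex I's core subunits carry the flavin and the iron-sulfur clusters that take electrons from NADH to ubiquinone. At 10 nM 6 of 7 were called higher (85.7%, against 15.3% of all genes). At 1 nM 0 of 7 were called higher (against 11.7%), and 3 had an unadjusted p under 0.05 in limma. Ndufv1, which binds NADH and the flavin, measured 5.17, 5.03 and 5.34 in vehicle cultures, 5.32, 5.42 and 5.46 at 1 nM and 5.60, 5.70 and 5.69 at 10 nM. The 10 nM cultures lay above all others, whereas the lowest 1 nM culture fell within the vehicle range. Its log2 change was 0.49 (SE 0.09, adjusted p = 0.0056) at 10 nM and 0.22 (SE 0.09, adjusted p = 0.138) at 1 nM, or 1.4-fold and 1.17-fold. Ndufs1, the largest subunit and a carrier of several iron-sulfur clusters, measured 4.14, 3.89 and 4.07 in vehicle cultures, 4.04, 4.32 and 4.42 at 1 nM and 4.40, 4.49 and 4.46 at 10 nM. All 10 nM values were above all vehicle values, and 1 of the 1 nM values was inside the vehicle range. The change of Ndufs1 was 0.42 (SE 0.11, adjusted p = 0.0276) at 10 nM, and it was no longer called without the second vehicle array or any one of the 10 nM arrays, with adjusted p of 0.0518 to 0.0865 and changes of 0.35 to 0.44.

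Ndufs3, Ndufs8 and Ndufs7, further core subunits, changed by 0.47 (SE 0.10, adjusted p = 0.00924), 0.41 (SE 0.08, adjusted p = 0.00761) and 0.44 (SE 0.14, adjusted p = 0.0462) at 10 nM. The call of Ndufs7 was lost in 7 of 9 fits that left out an array, all but those without the first or the third vehicle array, with changes of 0.29 to 0.51 and adjusted p of 0.0506 to 0.142. Ndufv2, the core subunit that was not called, changed by 0.27 (SE 0.10, adjusted p = 0.0739).

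The 28 accessory subunits surround the core and serve its assembly and stability. At 10 nM 23 were called higher (82.1%, against 15.3% of all genes), and at 1 nM 9 (32.1%, against 11.7%). The largest called change at 10 nM was that of Ndufa5, a subunit of the matrix arm, which measured 4.25, 4.33 and 3.98 in vehicle cultures, 4.49, 4.76 and 4.59 at 1 nM and 4.89, 4.92 and 4.66 at 10 nM. The vehicle values were all below the 1 nM values, and the third 10 nM value lay within the 1 nM range. Ndufa5 changed by 0.64 (SE 0.12, adjusted p = 0.00657) at 10 nM and 0.42 (SE 0.12, adjusted p = 0.0454) at 1 nM. The 1 nM call of Ndufa5 was lost in 7 of 9 fits that left out an array, with adjusted p up to 0.157. It held only without the second vehicle array or the third 10 nM array. A dimmer Ndufa5 probe changed by 0.48 (adjusted p = 0.0285) at 10 nM in a limma fit of single probes. At 1 nM that probe changed by 0.31 (adjusted p = 0.14).

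Ndufb9, a membrane-arm subunit, measured 5.50, 5.38 and 5.57 in vehicle cultures, 5.69, 5.88 and 5.82 at 1 nM and 6.04, 6.08 and 6.10 at 10 nM. Its groups did not overlap and rose in the order of dose. The change was 0.59 (SE 0.08, adjusted p = 0.000997) at 10 nM. Ndufb2, another membrane-arm subunit, measured 4.29, 3.90 and 4.15 in vehicle cultures, 4.47, 4.59 and 4.45 at 1 nM and 4.70, 4.72 and 4.59 at 10 nM, with the groups in the order of dose and the third 10 nM value only just above the highest 1 nM value. Ndufb2 changed by 0.56 (SE 0.11, adjusted p = 0.00591) at 10 nM and 0.39 (SE 0.11, adjusted p = 0.0345) at 1 nM, and the 1 nM call held in 1 of 9 fits that left out an array, the one without the first vehicle array (adjusted p of 0.0513 to 0.126 in the rest). A dimmer Ndufb2 probe changed by 0.35 at 10 nM (adjusted p = 0.121) and 0.15 at 1 nM (adjusted p = 0.51) in the fit of single probes. Its groups overlapped, with the second vehicle value (3.50) above all its 1 nM values and the second 10 nM value (3.48). Ndufa6, a matrix-arm subunit, measured 3.59, 3.73 and 3.37 in vehicle cultures, 3.96, 4.05 and 4.01 at 1 nM and 4.12, 4.07 and 4.11 at 10 nM. Both dose groups lay above every vehicle value and all 10 nM values were above every 1 nM value. Ndufa6 changed by 0.54 (SE 0.10, adjusted p = 0.004) at 10 nM and 0.45 (SE 0.10, adjusted p = 0.0128) at 1 nM, and without the second 1 nM array the 1 nM change had an adjusted p of 0.0548.

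The other called accessory subunits had log2 changes from 0.27 (Ndufc2) to 0.55 (Ndufb7) at 10 nM. Besides Ndufa5, Ndufa6 and Ndufb2, the subunits called at 1 nM were Ndufa7, Ndufa10, Ndufa13, Ndufb7, Ndufb9 and Ndufs4, with changes from 0.28 to 0.36. Except for Ndufa10, each of these was lost without the second or the third 1 nM array (adjusted p of 0.0636 to 0.0994), Ndufa13, Ndufb7 and Ndufb9 also without the first vehicle array and Ndufb9 without the second. Ndufa10 was among 3 of the 15 genes that were called at 1 nM whichever array was left out, with Atp5l and Ndufa4. At 10 nM 38 of 51 calls held in every such fit. Among the others, Ndufa11 (0.45) was lost in 8 of 9 fits, Ndufb6 (0.33), Ndufc2 (0.27) and Atp5o (0.33) in 6 each, Ndufb10 (0.44) in 3 and Ndufa12 (0.35) and Ndufb5 (0.34) in 2 each, with adjusted p of 0.0503 to 0.113 in these fits, and each was lost without at least one of the 10 nM arrays. A dimmer Ndufb6 probe changed by 0.38 (adjusted p = 0.00596) at 10 nM in the fit of single probes. A dimmer Ndufb5 probe changed by 0.56 (adjusted p = 0.000599) at 10 nM in that fit. Not called at 10 nM were 5 accessory subunits. Ndufa3 changed by 0.31, Ndufa2 by 0.30, Ndufb8 by 0.27, Ndufa8 by 0.17 and Ndufv3 by 0.14, with adjusted p from 0.0549 to 0.272. Ndufa2 had no value on the first vehicle array, whose spot was marked as non-uniform, so 2 vehicle arrays entered its fit.

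Ndufv3, a small subunit beside Ndufv1, is the member whose probes disagreed most. The brightest of its 3 probes, which stands for the gene, measured 5.05, 4.99 and 5.13 in vehicle cultures, 4.85, 5.06 and 5.11 at 1 nM and 5.12, 5.30 and 5.18 at 10 nM, with overlapping groups. Another Ndufv3 probe measured -1.12, -0.82 and -0.54 in vehicle cultures, -1.41, -1.48 and -1.29 at 1 nM and -1.26, -1.39 and -1.21 at 10 nM, all vehicle values above all calcitriol values. That probe's change was -0.46 at 10 nM (adjusted p = 0.048) and -0.57 at 1 nM (adjusted p = 0.0268) in the fit of single probes. This probe lies at chr17:31665148-31665207 on the plus strand of mm9, where its exon was not analysed here, and its sequence is shown because it goes against the other subunits.
Ndufv3 probe: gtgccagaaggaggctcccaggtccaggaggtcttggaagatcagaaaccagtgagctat
The third Ndufv3 probe changed by -0.30 at 10 nM (adjusted p = 0.347), with values of -1.66, -2.03 and -2.38, against -1.87, -1.97 and -1.33 in vehicle cultures.

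Probes of Ndufa3 also differed in sign. The probe that stands for Ndufa3 measured 3.97, 3.88 and 3.87 in vehicle cultures, 3.97, 4.30 and 4.08 at 1 nM and 4.28, 4.26 and 4.10 at 10 nM. Each 10 nM value exceeded each vehicle value, and the change was 0.31 (SE 0.10, adjusted p = 0.0549). A much dimmer Ndufa3 probe changed by -0.13 at 10 nM (adjusted p = 0.699), with values of -4.26, -3.58 and -4.23 at 10 nM, against -4.10, -4.08 and -3.52 in vehicle cultures. Of the 24 genes with several kept probes, 3 had probes of different sign at 10 nM (Ndufv3, Ndufa3 and Atp5c1) and 1 had probes more than 0.5 apart (Ndufv3). The median distance between a gene's probes was 0.12 on the log2 scale.

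Complex II, which oxidises succinate and belongs to the tricarboxylic acid cycle as well, had its called changes at 10 nM in both subunits of the catalytic head and in the anchor Sdhd. Sdha, the flavoprotein, whose promoter holds the 3 NRF1 matches, measured 3.39, 3.33 and 3.18 in vehicle cultures, 3.59, 3.65 and 3.63 at 1 nM and 3.85, 3.81 and 3.87 at 10 nM. The 3 groups were separate and ordered by dose. Sdha changed by 0.54 (SE 0.07, adjusted p = 0.000865) at 10 nM, or 1.45-fold, and by 0.32 (SE 0.07, adjusted p = 0.0139) at 1 nM, where the call was lost without the second or the third 1 nM array (adjusted p of 0.0605 and 0.0545). Sdhb, the iron-sulfur subunit, measured 4.56, 4.39 and 4.58 in vehicle cultures, 4.61, 4.79 and 4.78 at 1 nM and 4.92, 5.09 and 5.01 at 10 nM, and its groups did not overlap either. Its change was 0.50 (SE 0.09, adjusted p = 0.00364) at 10 nM and 0.22 (SE 0.09, adjusted p = 0.119) at 1 nM.

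The membrane anchors of complex II are Sdhd and Sdhc. Sdhd measured 3.87, 3.98 and 3.80 in vehicle cultures, 3.92, 4.02 and 3.98 at 1 nM and 4.25, 4.19 and 4.19 at 10 nM. The 10 nM values were above all others, while 1 nM and vehicle values overlapped. Sdhd changed by 0.33 (SE 0.07, adjusted p = 0.00983) at 10 nM and 0.09 (SE 0.07, adjusted p = 0.394) at 1 nM. Sdhc measured 3.23, 3.16 and 2.98 in vehicle cultures, 3.27, 3.20 and 3.15 at 1 nM and 3.42, 3.28 and 3.46 at 10 nM, with 10 nM above vehicle on every array, and changed by 0.26 (SE 0.09, adjusted p = 0.0654). A dimmer Sdhc probe measured 2.17, 2.93 and 2.54 in vehicle cultures, 2.86, 3.07 and 3.0 at 1 nM and 2.87, 3.08 and 3.06 at 10 nM, with 2 calcitriol values inside the vehicle range, and changed by 0.46 at 10 nM (adjusted p = 0.1) and 0.43 at 1 nM (adjusted p = 0.14). Whether head and anchor subunits differ was not tested.

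Complex III had 7 of its 8 genes called higher at 10 nM (87.5%, against 15.3% of all genes). At 1 nM 1 of the 8 was called higher, about the share of all genes (12.5%, against 11.7%). Uqcr11, a small subunit, measured 4.95, 4.98 and 4.84 in vehicle cultures, 5.17, 5.46 and 5.28 at 1 nM and 5.54, 5.51 and 5.46 at 10 nM. The lowest 10 nM value was about level with the highest 1 nM value, and the vehicle group lay below both. Uqcr11 changed by 0.58 (SE 0.09, adjusted p = 0.00203) at 10 nM and 0.38 (SE 0.09, adjusted p = 0.0189) at 1 nM, where the call was lost without the second or the third 1 nM array (adjusted p of 0.0601 and 0.0593). Uqcr10, another small subunit, measured 4.71, 4.60 and 4.61 in vehicle cultures, 4.79, 4.93 and 4.81 at 1 nM and 5.20, 5.16 and 5.18 at 10 nM. The 10 nM values were close together and above all others. Uqcr10 changed by 0.54 (SE 0.07, adjusted p = 0.000658) at 10 nM and 0.20 (SE 0.07, adjusted p = 0.0689) at 1 nM. Uqcrq, also a small subunit, measured 5.68, 5.66 and 5.73 in vehicle cultures, 5.80, 5.94 and 5.83 at 1 nM and 6.30, 6.07 and 6.15 at 10 nM, with groups separate and ordered by dose, and changed by 0.48 (SE 0.08, adjusted p = 0.00272) at 10 nM.

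Uqcrfs1, the Rieske iron-sulfur protein that passes electrons on to cytochrome c1, measured 4.0, 3.83 and 3.81 in vehicle cultures, 4.01, 3.96 and 4.04 at 1 nM and 4.25, 4.18 and 4.16 at 10 nM. It was higher at 10 nM than on every other array, and its change was 0.32 (SE 0.07, adjusted p = 0.0137). Uqcrc1, a core protein of complex III, measured 2.34, 2.59 and 2.17 in vehicle cultures, 2.51, 2.43 and 2.47 at 1 nM and 2.91, 2.55 and 2.95 at 10 nM. The second 10 nM culture lay inside the vehicle range and the other 10 nM cultures above it, and the change of 0.44 (SE 0.14, adjusted p = 0.0512) missed the threshold. Without the third vehicle array it was 0.34 (adjusted p = 0.113). The second core protein, Uqcrc2, changed by 0.41 (SE 0.08, adjusted p = 0.00726), and Uqcrh and Uqcrb, small subunits, by 0.44 (SE 0.10, adjusted p = 0.0131) and 0.37 (SE 0.10, adjusted p = 0.0233). The call of Uqcrb was lost without the first vehicle array or the first or the third 10 nM array, with changes of 0.30 to 0.40 and adjusted p of 0.0509 to 0.064.

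In complex V the number of genes called higher differed between parts of the enzyme with 3 to 5 genes each. All 4 genes of the peripheral stalk, which holds the head still, and all 3 membrane accessory subunits were called higher at 10 nM. Of the F1 head and central stalk 2 of 5 genes were called, and of the c-ring 1 of 3, against 15.3% of all genes. Some genes lay near the threshold. Atp5o of the peripheral stalk changed by 0.33 and was called, while Atp5d of the F1 part changed by 0.34 and was not. Whether the parts differ from each other was not tested. Atp5l, subunit g of the membrane part, measured 5.24, 5.35 and 5.15 in vehicle cultures, 5.62, 5.74 and 5.72 at 1 nM and 5.92, 5.95 and 5.86 at 10 nM. Its groups were separate and rose with dose. Atp5l changed by 0.67 (SE 0.08, adjusted p = 0.000394) at 10 nM and 0.45 (SE 0.08, adjusted p = 0.00404) at 1 nM, or 1.59-fold and 1.37-fold, and its 6 probes gave 0.50 to 0.69 at 10 nM. Atp5f1, subunit b of the peripheral stalk, measured 3.17, 3.19 and 3.06 in vehicle cultures, 3.41, 3.46 and 3.57 at 1 nM and 3.60, 3.67 and 3.81 at 10 nM, again without overlap. It changed by 0.55 (SE 0.08, adjusted p = 0.00168) at 10 nM and 0.34 (SE 0.08, adjusted p = 0.0206) at 1 nM. The 1 nM call was lost without the second or the third 1 nM array (adjusted p of 0.0646 and 0.0843). Another Atp5f1 probe changed by 0.47 (adjusted p = 0.0103) at 10 nM in the fit of single probes. At 1 nM that probe changed by 0.21 (adjusted p = 0.183).

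Atp5j, coupling factor 6 of the same stalk, measured 4.52, 4.51 and 4.34 in vehicle cultures, 4.66, 4.78 and 4.75 at 1 nM and 4.97, 4.96 and 4.93 at 10 nM. No vehicle value reached the 1 nM values and no 1 nM value the 10 nM values. Its change was 0.50 (SE 0.07, adjusted p = 0.0016) at 10 nM and 0.27 (SE 0.07, adjusted p = 0.0312) at 1 nM, and the 1 nM call was lost in 6 of 9 fits that left out an array, those without the third vehicle array, the second or the third 1 nM array or any one 10 nM array (0.22 to 0.27, adjusted p of 0.0512 to 0.118). The remaining stalk and membrane genes changed by 0.43 (Atp5h), 0.33 (Atp5o), 0.40 (Atp5k) and 0.38 (Atp5j2) at 10 nM.

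Of the F1 head, Atp5a1, the alpha subunit, measured 5.13, 5.05 and 5.08 in vehicle cultures, 5.21, 5.25 and 5.37 at 1 nM and 5.43, 5.44 and 5.60 at 10 nM. All 10 nM values were highest, and the change was 0.41 (SE 0.08, adjusted p = 0.0053) at 10 nM. Atp5b, the catalytic beta subunit, measured 6.45, 6.39 and 6.57 in vehicle cultures, 6.60, 6.34 and 6.62 at 1 nM and 6.74, 6.63 and 6.71 at 10 nM. The second 1 nM value was the lowest of all, and the 10 nM values were above the vehicle values by little. Atp5b changed by 0.22 (SE 0.10, adjusted p = 0.122) and was not called. Atp5c1, the gamma subunit of the central stalk, measured 3.76, 3.70 and 3.65 in vehicle cultures, 3.61, 3.50 and 3.43 at 1 nM and 3.76, 3.67 and 3.64 at 10 nM. The 1 nM values were below all vehicle values, and the 10 nM values overlapped the vehicle values. Atp5c1 changed by -0.02 (SE 0.07, adjusted p = 0.887) at 10 nM and -0.19 (SE 0.07, adjusted p = 0.105) at 1 nM, whereas its dimmer probe gave 0.22 at 10 nM (adjusted p = 0.199). Atp5e was called, with 0.49 (SE 0.11, adjusted p = 0.0129), though not without the second 10 nM array (0.44, adjusted p = 0.0519), and Atp5d, with 0.34 (SE 0.11, adjusted p = 0.0539), was not.

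The c-ring genes Atp5g1, Atp5g2 and Atp5g3 encode the same mature proteolipid behind different targeting peptides. Atp5g3 measured 6.0, 6.07 and 6.09 in vehicle cultures, 6.10, 6.24 and 6.30 at 1 nM and 6.51, 6.44 and 6.46 at 10 nM. Its 10 nM values were above all others, and its change was 0.42 (SE 0.07, adjusted p = 0.00344), or 1.33-fold. Atp5g1 measured 5.56, 5.31 and 5.54 in vehicle cultures, 5.41, 5.60 and 5.45 at 1 nM and 5.55, 5.67 and 5.47 at 10 nM, with the 3 groups overlapping. It changed by 0.09 (SE 0.10, adjusted p = 0.491), with a 95% interval of -0.14 to 0.32. Atp5g2 measured 6.43, 6.43 and 6.48 in vehicle cultures, 6.35, 6.62 and 6.63 at 1 nM and 6.62, 6.70 and 6.56 at 10 nM. All its 10 nM values exceeded the vehicle values, the change was 0.18 (SE 0.09, adjusted p = 0.185) and the 95% interval -0.04 to 0.39. Signal shared between probes of such similar transcripts was not examined.

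**Figure D4:**
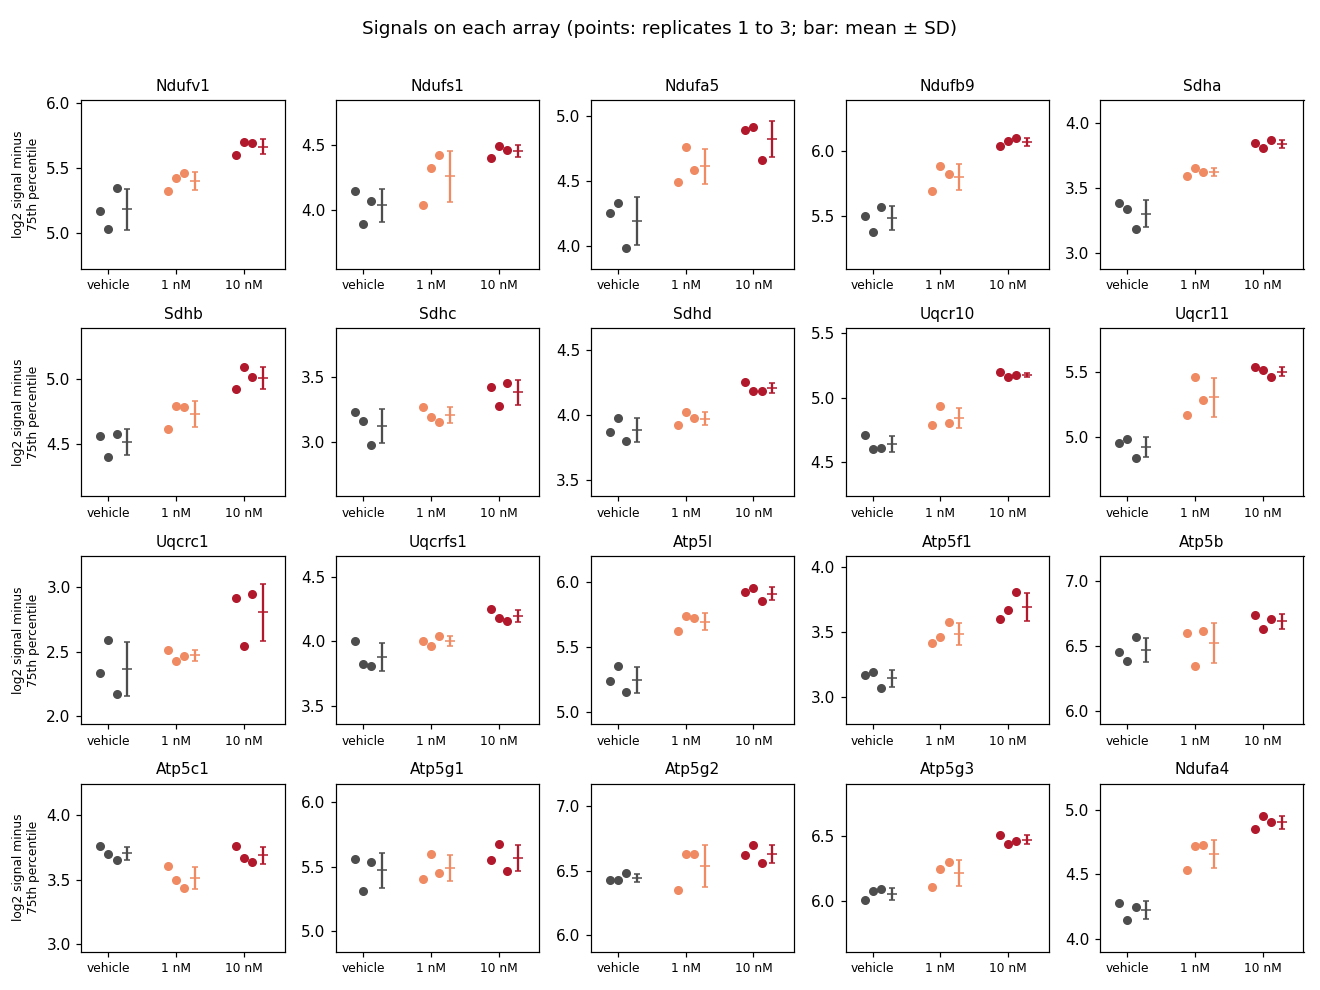
Log2 signal relative to the array's 75th percentile (y axis, the same height of scale in every panel) for 20 genes, with 1 point per array for vehicle (grey), 1 nM (orange) and 10 nM (dark red) and the mean ± SD of 3 arrays beside them. Sdha, Sdhb, Ndufb9, Atp5l, Atp5f1 and Ndufa4 show 3 separate groups in the order of dose, while Atp5g1 and Atp5c1 overlap and the second 10 nM array of Uqcrc1 lies within the vehicle values.

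Among names outside the complexes, Ndufa4, first counted in complex I and now placed in complex IV, had the largest called change of all 67 genes. It measured 4.28, 4.15 and 4.24 in vehicle cultures, 4.53, 4.72 and 4.72 at 1 nM and 4.85, 4.95 and 4.90 at 10 nM. The groups were separate. Ndufa4 changed by 0.68 (SE 0.08, adjusted p = 0.000436) at 10 nM and 0.43 (SE 0.08, adjusted p = 0.00581) at 1 nM, or 1.6-fold and 1.35-fold. Its paralogue Ndufa4l2, a gene induced by low oxygen, measured -4.25, -4.32 and -2.95 in vehicle cultures, -4.06, -4.46 and -4.83 at 1 nM and -4.71, -4.61 and -5.06 at 10 nM. The third vehicle array was far above the other vehicle arrays, and the change of -0.95 (SE 0.38, adjusted p = 0.103) at 10 nM was not called. Without that array the change of Ndufa4l2 was -0.51 (adjusted p = 0.147).

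Atp5s, the gene called lower, measured -2.97, -2.78 and -2.91 in vehicle cultures, -3.08, -3.02 and -3.01 at 1 nM and -3.18, -3.09 and -3.09 at 10 nM. Every 10 nM value was below every vehicle value, by little. Its change was -0.23 (SE 0.07, adjusted p = 0.0466), the call held in 1 of 9 fits that left out an array, the one without the first vehicle array, and the other 8 gave -0.18 to -0.24 with adjusted p of 0.0594 to 0.113. Under quantile normalization the change of Atp5s was 0.50 (adjusted p = 0.454). Atp5sl measured 0.68, 0.61 and 0.49 in vehicle cultures, 0.78, 0.77 and 0.84 at 1 nM and 0.80, 0.69 and 0.83 at 10 nM, higher on each calcitriol array than on each vehicle array, and changed by 0.18 (SE 0.07, adjusted p = 0.112). The pseudogene Atp5c1-ps changed by 0.22 (SE 0.08, adjusted p = 0.0644).

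The dose question was whether 10 nM moved these genes further than 1 nM. Group means were lowest in vehicle, intermediate at 1 nM and highest at 10 nM in 62 of 67 genes (92.5%), against 24.2% of all genes tested, and in 29 genes (43.3%, against 6.03%) no array was out of that order. In the test of 10 nM against 1 nM, however, 1 gene was called higher (1.49%, against 1.58% of all genes) and 0 lower (against 2.21%, and 3.79% in either direction), with 30 higher and 0 lower at an unadjusted p under 0.05 in limma. The median change between the doses was 0.19, or 1.14-fold, against -0.01 for all genes, and 45 of 67 genes had 10 nM values wholly above the 1 nM values (against 12.6% of all genes), and 1 wholly below (against 11.4%).

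The gene called between the doses was Uqcr10, at 0.34 (SE 0.07, adjusted p = 0.0386). Its 3 probes gave 0.32 to 0.34. The call was lost with the replicate number as a block (adjusted p = 0.114), in which cultures of the same number, vehicle included, count as a set. It was also lost in 7 of 9 fits that left out an array. These were the fits without the first vehicle array or any one calcitriol array (0.31 to 0.38, adjusted p of 0.0524 to 0.178). The next largest positive differences were those of Uqcrc1 (0.33), Uqcrq (0.32) and Ndufs7 (0.29). By complex the median difference was 0.17 for complex I, 0.23 for complex II, 0.26 for complex III and 0.21 for complex V. Within the first slide, with 1 array per dose, these were 0.26, 0.28, 0.37 and 0.27, and within the second slide 0.13, 0.18, 0.18 and 0.17.

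Other mitochondrial genes were set beside these at 10 nM, where 15.3% of all genes were called higher and 14.7% lower. Of 17 cytochrome c oxidase genes 10 were called higher and 0 lower (1 lower at an unadjusted p under 0.05), with a median change of 0.41. The largest was Cox7a1, a subunit isoform of heart and skeletal muscle, at 2.17 (SE 0.16, adjusted p = 3.2e-05). Cox8b and Cox8a changed by 0.94 (SE 0.09, adjusted p = 0.000176) and 0.46 (SE 0.06, adjusted p = 0.00106). Of 17 genes of the tricarboxylic acid cycle and pyruvate dehydrogenase 13 were called higher and 0 lower, with 0 lower also at an unadjusted p under 0.05 and a median of 0.45. Among them, Idh3b, a subunit of isocitrate dehydrogenase, changed by 0.75 (SE 0.11, adjusted p = 0.00147) and Dlat, the acetyltransferase of pyruvate dehydrogenase, by 0.67 (SE 0.10, adjusted p = 0.00182).

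Among 13 subunits and partners outside the name pattern the median was 0.28, with 0 called lower (0 lower unadjusted). Called higher were 6 (46.2%, against 15.3% of all genes). They were Cyc1, the cytochrome c1 of complex III, at 0.57 (SE 0.10, adjusted p = 0.003), Ndufab1, the acyl carrier protein of complex I, at 0.37 (SE 0.06, adjusted p = 0.00325), and Etfa, Etfdh, Cycs and Slc25a4. Etfa, which brings electrons from fatty acid oxidation, had the largest change at 1.03 (SE 0.09, adjusted p = 0.000118). Of 24 assembly factors 8 were called higher and 0 lower (0 lower unadjusted), with a median of 0.21. Uqcc3 and Uqcc1, which assist complex III assembly, changed by 0.65 (SE 0.07, adjusted p = 0.00033) and 0.88 (SE 0.10, adjusted p = 0.00049), and Sdhaf4, for complex II, by 0.56 (SE 0.08, adjusted p = 0.00113). Of 76 mitochondrial ribosomal protein genes 26 were called higher and 0 lower (1 lower unadjusted), with a median of 0.22, led by Mrpl54 at 0.56 (SE 0.07, adjusted p = 0.000568), Mrpl41 at 0.40 (SE 0.06, adjusted p = 0.00219) and Mrpl34 at 0.47 (SE 0.08, adjusted p = 0.00233).

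**Figure D5:**
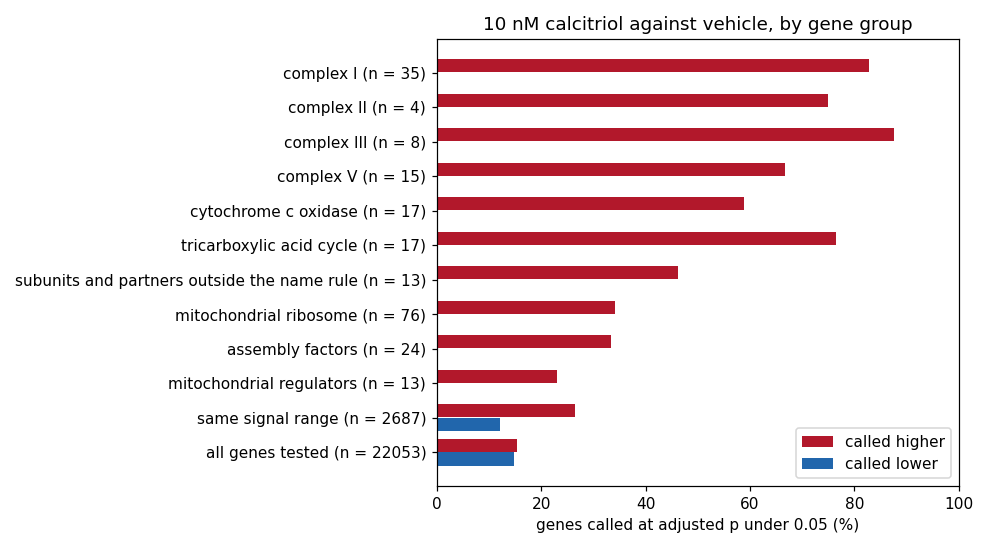
Percent of genes in each group (x axis) called higher (red) or lower (blue) at 10 nM against vehicle, with the number tested in parentheses. Complexes I, II, III and V range from 66.7% to 87.5% called higher with 0 called lower, the mitochondrial ribosome reaches 34.2%, genes of like signal 26.5% and all genes 15.3%.

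Of 13 regulators of mitochondrial genes 3 were called higher at 10 nM (23.1%, against 15.3% of all genes), with a median change of 0.12. Lower calls numbered 0 (against 14.7%), also at an unadjusted p under 0.05 in limma. Ppargc1b, a coactivator of oxidative genes, changed by 0.96 (SE 0.13, adjusted p = 0.000896) at 10 nM and 0.34 (SE 0.13, adjusted p = 0.103) at 1 nM. Nrip1, a corepressor known to restrain oxidative genes in mouse muscle, changed by 0.99 (SE 0.06, adjusted p = 1.5e-05) at 10 nM, and Tfb2m, a factor of mitochondrial transcription, by 0.46 (SE 0.09, adjusted p = 0.00846). Ppargc1a, the best known coactivator of mitochondrial biogenesis, changed by 0.89 (SE 0.35, adjusted p = 0.0962) and was not called. Nrf1, a transcription factor of respiratory genes, changed by -0.18 (SE 0.13, adjusted p = 0.317) and was not called.

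Markers of growth, differentiation and other cell types moved in the same cultures. Of all genes, 15.3% were called higher and 14.7% lower at 10 nM, and 11.8% lower at 1 nM. All 10 proliferation markers, led by Ccna2, Mki67 and Kif20a, with 8 above background on all arrays, were called lower at both doses, and their summed linear signal, relative to the 75th percentile, was 40.8 to 45.8 with vehicle, 2.41 to 2.76 at 1 nM and 1.56 to 1.63 at 10 nM. Of 15 myotube markers 9 were called higher and 2 lower (Myog and Myh4) at 10 nM, with summed signals of 432 to 477 with vehicle, 536 to 585 at 1 nM and 573 to 605 at 10 nM. Among them, Myh2, a myosin heavy chain of oxidative fast fibres, changed by 2.20 (SE 0.08, adjusted p = 1.0e-06) at 10 nM. Of 12 low-oxygen response genes 9 were called lower and 1, Vegfa, higher at 10 nM, with a median change of -1.22. Slc16a3, the lactate exporter, and Ndrg1, a stress response gene, changed by -2.66 (SE 0.11, adjusted p = 2.1e-06) and -2.56 (SE 0.09, adjusted p = 6.7e-07) at 10 nM. Their part in the changes of the respiratory genes was not tested.

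Markers of other cell types were also read, with Lep, Cdh5 and Emcn not above background in a whole group. Fibroblast markers, 5 of 7 above background on all arrays, summed to 144 to 157 with vehicle, 113 to 123 at 1 nM and 107 to 121 at 10 nM. Adipocyte markers, 3 of 7 above background throughout, summed to 0.827 to 1.58 with vehicle, 2.18 to 2.37 at 1 nM and 4.64 to 5.06 at 10 nM. The adipocyte genes Adipoq and Fabp4 were above background on 1 of 3 vehicle arrays and on all calcitriol arrays. Macrophage markers, 4 of 6 above background throughout, summed to 20.8 to 25.2 with vehicle, 17.8 to 19.2 at 1 nM and 16.1 to 21.3 at 10 nM. Endothelial markers, 2 of 5 above background throughout, summed to 3.55 to 5.92, 3.81 to 5.21 and 4.54 to 6.25 in the same order. Osteoblast markers, 4 of 5, summed to 0.405 to 0.565, 0.425 to 0.461 and 0.272 to 0.326. Of these lists, 2 fibroblast, 2 adipocyte and 1 endothelial gene were called higher at 10 nM, against 15.3% of all genes. Of the macrophage and osteoblast genes 0 were called higher, and 0 unadjusted. Called lower were 3 fibroblast genes and 1 osteoblast gene (against 14.7% of all genes), with 0 macrophage genes called lower (1 unadjusted). Their part in the result was not tested either.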

How the data were processed

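Total RNA from 9 C2C12 cultures, 3 per group, was hybridised to 1-colour (Cy3) Agilent arrays. The signal intensity of each spot, with background subtracted, and the 0 and 1 marks for spots above background or non-uniform came from Agilent Feature Extraction 11.5.1.1, as deposited and per the file headers and the submitters' processing notes. A deposited table of log2 values per probe, normalized by the submitters, covered 30094 probes with column medians of 9.65 to 9.73. It correlated at 0.988 to 0.995 per array with the scanner values, its scale and centring are not stated, and it served as an alternative. Probe coordinates are in mm9, per the file headers.

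For the values here, log2 intensity minus the array's 75th percentile was taken over non-control spots, non-uniform spots were left out and spots of a probe averaged. The filter on dim signal took 28521 of 39429 probes, those above background in every culture of 1 or more groups. A gene was its kept probe of highest mean. limma 3.58.1 (R 4.3.3; lmFit, eBayes) fitted all 9 arrays at once, with Benjamini-Hochberg adjustment over 22053 genes and a threshold of 0.05. Tables and figures used Python 3.11.15, pandas 2.3.3, numpy 2.4.6 and matplotlib 3.10.9. The 75th percentile intensity was 2826 to 3389 and 0 spots were saturated. P-values set a change against the spread between these cultures, each with its own array, as moderated by eBayes.

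The members and gene lists were chosen with earlier results of these data known. Genes were named by rule, being up to 3 called genes with the largest change per complex and comparison, the catalytic subunits, paralogues, genes called against the trend and genes whose probes disagreed, and for other lists up to 3 called genes with the smallest p. Ppargc1a, Nrf1 and the genes whose calls were lost without an array were named after their values were seen. The values of 1 member and of 1 gene of another list are not reported here. Cultures of the same number deviated together between 10 nM and 1 nM (correlations of 0.483, 0.330 and 0.141) and not with vehicle (-0.420 to 0.055). The second 10 nM and the third 1 nM cultures, of different number but on the same slide, gave 0.309. The first 10 nM and 1 nM cultures also shared a slide, as did the second ones. Number and slide therefore cannot be told apart here, and whether the numbers mark pairs is not known.

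Tested on simulated data from the same arrays (20114 genes, 50 changed at each size), the fit of 10 nM against vehicle recovered 0% of changes of 0.2 on the log2 scale, 12% at 0.4, 62% at 1 and 74% at 2. At 1 nM the shares were 0%, 4%, 60% and 78%. Far fewer genes changed in the simulation than were called in the data (30% at 10 nM and 23.5% at 1 nM). The adjustment was therefore stricter there, and these shares are not the recovery of the comparisons above. Alternatives covered background correction, scaling, filter, probe choice, variance model, blocks by slide or replicate number and leaving out each array.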

Additional observations from a re-analysis of the deposited data

How the results depend on the processing

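Counts of called genes are given first, against 15 at 1 nM, 51 at 10 nM and, for 10 nM against 1 nM, 1. At 1 nM the count was 8 with normexp background correction, 9 in the submitters' table, 9 with slide as a block, 5 with only the compared groups in the fit, 0 within the first slide, 0 with array median scaling with or without the third vehicle array, 23 of 100 probes tested singly and 41 with array weights (against 52.6% of all genes). At 10 nM it was 5 with median scaling, 0 within the first slide and 32 within the second, and 38 to 57 of 67 genes under the other settings that tested genes on all arrays. Between the doses it was 0 with normexp, quantile normalization, median scaling with or without the third vehicle array and the submitters' table. It was also 0 with no filter, the mean of a gene's probes, the replicate block and slide as a block. In these fits up to 3.19% of all genes were called. The count was 4 with a variance trend and robust estimation together (against 4.66% of all genes) and 9 with array weights (8.48%). Leaving out 1 array gave 3 to 16 at 1 nM (15.9% to 25.2% of all genes) and 40 to 49 at 10 nM (23.1% to 32.4%). From dose to dose it gave 0 to 1 (1.65% to 5.74%). With the replicate block, 15, 48 and 0 genes were called (against 21.1%, 28.2% and 2.05% of all genes).

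Median changes stayed positive under every setting. Median scaling, which moved the median of all genes to 0.37 at 1 nM and 0.39 at 10 nM, gave 0.72, 0.64, 0.65 and 0.65 at 1 nM for complexes I, II, III and V, and 0.94, 0.94, 0.97 and 0.93 at 10 nM. Without the third vehicle array it gave 0.25, 0.28 and 0.26 for II, III and V at 1 nM, and 0.53, 0.52, 0.59 and 0.51 at 10 nM. Scaling to the 90th percentile gave 0.32, 0.35 and 0.31 for II, III and V at 10 nM. This and median scaling without that array were added after seeing the data. For complex II, quantile normalization gave 0.35 and the submitters' values 0.34 at 10 nM, the mean of probes 0.23 at 1 nM, and normexp 0.16 and the submitters' values 0.11 between the doses. Between the doses the first slide gave 0.37 for III and 0.27 for V, and the second 0.18 for III.

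With 1 array left out, I ranged over 0.19 to 0.26 at 1 nM, 0.38 to 0.42 at 10 nM and 0.12 to 0.21 between the doses, and II over 0.14 to 0.20, 0.38 to 0.42 and 0.21 to 0.25. III ranged over 0.14 to 0.19, 0.43 to 0.48 and 0.23 to 0.30, and V over 0.12 to 0.18, 0.37 to 0.42 and 0.19 to 0.23. The change of Atp5s at 10 nM turned to 0.50 with quantile normalization (adjusted p = 0.454), 0.30 with median scaling (0.533) and 0.30 in the submitters' table (0.532). The cause of these differences was not tested. Slide and dose are partly mixed.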
